A study of Mus musculus with 18 samples.

Results

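*Nlrp4a*, *Nlrp4b*, *Nlrp4c*, *Nlrp4e*, *Nlrp4f*, *Nlrp9a*, *Nlrp9b*, *Nlrp9c* and *Nlrp14* are mouse NLR genes known from the oocyte. They were chosen by gene symbol, not by their values, and all 9 were found among the 53715 genes of the count table and the 28252 genes of the TPM table (a level scaled for gene length and library size). NLRP proteins carry a pyrin domain, a nucleotide-binding NACHT domain and leucine-rich repeats, and some of them build inflammasomes in immune cells. The members described here belong to the reproductive branch of the family, whose RNAs are stored in the growing oocyte and serve the early embryo. *Nlrp14* is a maternal-effect gene, NLRP4F has been found with the subcortical maternal complex (SCMC) of oocyte and embryo, and *Nlrp9b* is also known as an inflammasome sensor of the intestine.

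The study compared oocytes grown *in vivo* with oocytes grown *in vitro* in 18 libraries of F1 hybrid mice (C57Bl/6j x CBA/J), 3 in each of 6 groups. At the primordial and primary follicle stages, oocytes were taken from sections of fixed, paraffin-embedded ovaries by laser capture microdissection (LCM), in which a laser frees chosen cells. The *in vivo* LCM groups came from non-cultured ovaries of mice aged 14 days, and the *in vitro* LCM groups from ovaries of mice aged 7 days that were cultured for a further 7 days in medium with 10% serum, insulin, transferrin, selenium and recombinant FSH. *In vivo* MII (metaphase II) oocytes were ovulated by adult females after gonadotropin injections. *In vitro* MII oocytes came from secondary follicles of cultured ovaries, which were grown in alginate for a further 12 days and induced with hCG, and an MII library held 10 oocytes. RNA of LCM caps was pooled by stage, amplified, and made into libraries that capture coding RNA with probes, while MII libraries were made by Smart-seq II. RNA was also extracted with different kits from LCM caps and from MII oocytes. Any difference of MII from LCM libraries is therefore one of stage, fixation, RNA extraction, library kit and age or culture time together. These cannot be told apart, and no such difference was tested. Nothing in the sources says whether replicates came from separate animals, so p-values measure only the spread between these libraries.

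The 12 LCM libraries held 15149564 to 29205503 counts each, and the 6 MII libraries 7334817 to 9978830. Levels below 3 counts, the floor used here, correspond to 0.103 to 0.198 CPM (read counts relative to the total of a library) for LCM and 0.301 to 0.409 CPM for MII samples, and the floor covers counting error only. The summed TPM of 15 oocyte markers (*Gdf9*, *Oosp1* and *Dppa3* had the most counts over all libraries) was 333 to 2041 in LCM and 16933 to 34825 in MII libraries. In LCM libraries *Ddx4* (219 TPM), *Dazl* (89.1 TPM) and *Zp1* (83 TPM) had the highest medians, against 0.0799 TPM for *Oosp1* and 5.33 TPM for *Dppa3*. The LCM and MII sums thus rest on largely different genes. Markers of other cells were also read in LCM libraries. The summed TPM of 12 granulosa markers was 22.1 to 2362 there against 25.1 to 72.6 in MII, and that of 10 stroma and theca markers was 453 to 11981 against 1.39 to 5.02. Of the granulosa genes with the most counts, *Foxl2* and *Fst* were at 0 in all 6 MII libraries and *Inha* in 4 of 6 (at most 2.7 TPM), as was *Amhr2* in all 6, whereas *Cyp19a1*, which made up most of the MII sum, had 17.5 to 64.7 TPM in MII libraries and 0 in 11 of 12 LCM libraries. *Fshr* was above the floor in 4 of 6 MII libraries and at 0 in all LCM libraries. Of the stroma list, *Col1a1* (148 to 9734 TPM), *Col1a2* (74.7 to 1068 TPM) and *Nr2f2* (0.0226 to 604 TPM) had counts in all 12 LCM libraries. The libraries primordial *in vitro* 2 and primary *in vivo* 3 stood apart, with the highest oocyte marker sums of the 12 (2041 and 1646 TPM) and the highest *Nlrp14* levels, and results that rest on them are also given without them. In bulk RNA, fewer cells of a type and less RNA per cell cannot be told apart.

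In the GENCODE annotation of GRCm38 (mm10), 8 of the members lie on chromosome 7. *Nlrp4c* spans chr7:6045161-6105150, *Nlrp4b* chr7:10687789-10730168, *Nlrp9b* chr7:19991465-20073306 and *Nlrp4e* chr7:23301192-23362277, all on the plus strand. *Nlrp9c* (chr7:26322473-26403700, minus strand), *Nlrp4a* (chr7:26435113-26476142, plus strand) and *Nlrp9a* (chr7:26535023-26575615, plus strand) form a cluster, with 31.4 kb between the former pair and 58.9 kb between the latter. *Nlrp14* lies 80.6 Mb farther on at chr7:107166990-107198102, plus strand. *Nlrp4f* is on another chromosome, at chr13:65177111-65205977 on the minus strand. Each is a protein-coding gene whose longest coding transcript has 9 to 11 exons and 2589 to 3012 coding bases.

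The coding sequences fell into the 3 named subfamilies. *Nlrp4c* and *Nlrp4e* were the closest pair, identical at 93.9% of aligned bases, followed by *Nlrp9a* and *Nlrp9c* at 87.4%. *Nlrp14* was 58.7% to 60.8% identical with the other members. This bears on the counts, since a read of a stretch that copies share cannot be placed. Of all windows of 50 bases in its transcripts, *Nlrp4e* shared 36.7% with transcripts of other genes, *Nlrp4c* shared 10.7% and *Nlrp9b* 7.79%, whereas *Nlrp14* and *Nlrp4b* shared 0%. *Nlrp9b* also overlaps exons of the pseudogene *Gm18877*. Counts of *Nlrp4c*, *Nlrp4e* and *Nlrp9b* are therefore uncertain, because the treatment of reads with several matches is not given in the sources used here.

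**Figure D1:**
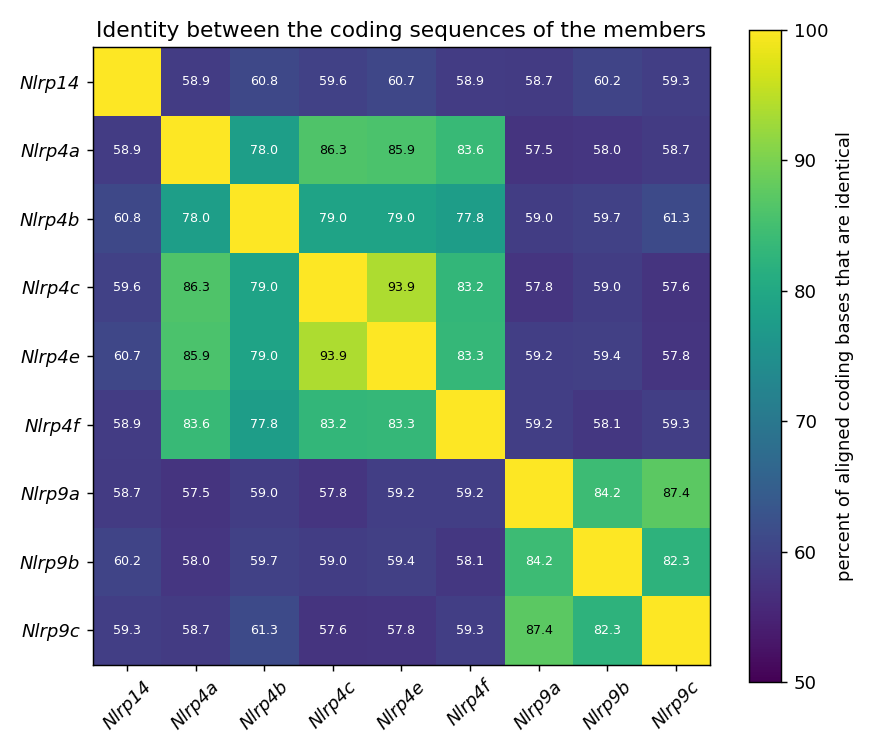
Percent of aligned coding bases that are identical between each pair of the 9 members, with the colour running from 50% to 100%. The *Nlrp4* genes form a block with the *Nlrp4c* and *Nlrp4e* pair at 93.9%, the *Nlrp9* genes form another block, and *Nlrp14* stays between 58.7% and 60.8% with all others.

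RefSeq promoter windows on GRCm38.p6, from 250 bases before to 50 bases after a start site, were found for 8 of the 9 members (10 windows). *Nlrp14* had no entry. E-boxes are of interest here because bHLH factors of the oocyte bind them. The form CAGCTG stood in a window of 5 of 5 *Nlrp4* genes and of none of the *Nlrp9* genes, while CACCTG stood in the windows of *Nlrp9a*, *Nlrp9b* and *Nlrp9c*. Counted by window, CAGCTG was in 7 and CACCTG in 3 of the 10 member windows. Over 32851 windows of all genes, CAGCTG was found in 16.3% and CACCTG in 20.2%. The general form CANNTG says little, since it was in all 10 windows of the 8 members and in 72.3% of all windows. The following stretches from just before start sites of *Nlrp4a*, *Nlrp4b*, *Nlrp4c*, *Nlrp9a* and *Nlrp9c* are shown because each holds CCAAT and an E-box. The CAGCTG of *Nlrp4c* lies after its start site and so outside its stretch. The capitals mark CCAAT on either strand and the E-box CANNTG, and none of the stretches overlaps a GENCODE exon.
Nlrp4a: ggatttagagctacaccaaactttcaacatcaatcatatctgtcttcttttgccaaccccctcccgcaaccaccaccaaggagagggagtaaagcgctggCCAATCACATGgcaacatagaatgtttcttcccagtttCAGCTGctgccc
Nlrp4b: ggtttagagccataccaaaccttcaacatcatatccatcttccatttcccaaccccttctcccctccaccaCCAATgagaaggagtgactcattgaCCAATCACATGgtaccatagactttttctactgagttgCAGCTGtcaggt
Nlrp4c: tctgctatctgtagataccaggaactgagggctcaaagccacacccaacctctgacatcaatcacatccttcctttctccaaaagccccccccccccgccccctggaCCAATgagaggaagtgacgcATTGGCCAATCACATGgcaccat
Nlrp9a: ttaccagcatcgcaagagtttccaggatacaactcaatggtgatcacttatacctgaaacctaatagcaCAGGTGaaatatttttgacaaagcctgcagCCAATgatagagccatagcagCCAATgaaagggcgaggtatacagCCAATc
Nlrp9c: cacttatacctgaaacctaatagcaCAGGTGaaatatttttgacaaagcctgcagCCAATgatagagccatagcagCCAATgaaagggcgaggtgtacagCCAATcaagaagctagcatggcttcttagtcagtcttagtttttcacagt
These are chr7:26435464-26435613 (plus strand, inside an intron of the GENCODE gene, before a second RefSeq start), chr7:10687643-10687788 (plus), chr7:6045011-6045160 (plus), chr7:26534873-26535022 (plus) and chr7:26403701-26403850 (minus), in the order shown.

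In *Nlrp4a*, *Nlrp4b* and *Nlrp4c* a CCAAT runs straight into an E-box. This joined form, CCAAT followed directly by CANNTG on either strand, was found in 0.475% of all windows. Among the 10 member windows it was in 4, which belong to 3 of the 8 members. CCAAT alone was found in 7 of the 10 member windows and in 37.4% of all windows. The 7 member windows belong to 6 members (*Nlrp4a*, *Nlrp4b*, *Nlrp4c*, *Nlrp4e*, *Nlrp9a* and *Nlrp9c*). The CCAAT searches were added after the sequences were seen. The windows themselves are related, with *Nlrp9a* and *Nlrp9c* identical at 96.8% of 252 aligned bases, *Nlrp4a* and *Nlrp4b* at 80.4% of 275 and *Nlrp4a* and *Nlrp4c* at 78.3% of 263. Of the other motifs searched on either strand, TATAAA was in the window of *Nlrp9b* only among the members (13.6% of all windows), TAATTG in *Nlrp9a* and *Nlrp9b* (8%), TAATTA in *Nlrp9a* (5.29%) and GGGCGG in *Nlrp4c* (35.7%). CACGTG was in none of the 8 members and in 7.15% of all windows. A match is a run of letters and not a measured binding site.

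In oocytes of primordial and primary follicles, *Nlrp14* made up most of the RNA read from these genes. *Nlrp14* was read at 10.6, 6.49 and 2.42 TPM in primordial *in vivo* libraries and at 3.54, 37 and 3.95 TPM in primordial *in vitro* libraries. In primary follicle oocytes it stood at 10.2, 5.38 and 39 TPM *in vivo* and at 18.2, 11.5 and 11.3 TPM *in vitro*. The levels overlapped between growth *in vivo* and *in vitro* at each stage and between the stages *in vivo*, while primordial *in vivo* (2.42 to 10.6 TPM) and primary *in vitro* libraries (11.3 to 18.2 TPM) did not overlap. Primordial *in vitro* 2 and primary *in vivo* 3 were the 2 libraries above 30 TPM. The counts behind these levels were 59 to 1115, all above the floor. Beside the high library, the other libraries of primordial *in vitro* were among the lowest of the 12.

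*Nlrp4f* was the only other member read above the floor in all 12 LCM libraries, with 8 to 76 counts. Its levels were 1.58, 1.98 and 0.771 TPM in primordial *in vivo* and 1.81, 2.18 and 0.321 TPM in primordial *in vitro* libraries. In primary follicle oocytes they were 1.38, 0.849 and 3.84 TPM *in vivo* and 2.8, 0.889 and 1.61 TPM *in vitro*. Group means were thus 1.44 ± 0.615 and 1.44 ± 0.985 TPM at the primordial stage and 2.02 ± 1.59 and 1.77 ± 0.968 TPM at the primary stage (SD, n = 3), *in vivo* and *in vitro* in turn. *Nlrp14* was the highest and *Nlrp4f* the second highest member by TPM in 12 of 12 LCM libraries, and in 10 of 10 without the libraries that stood apart.

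The remaining 7 members, all *Nlrp4* and *Nlrp9* genes, were at or near the floor before MII. Their highest LCM level was 1.94 TPM, for *Nlrp4a* in primary *in vivo* 3. Of 84 pairs of a gene and a library, 42 were listed at 0 counts and 28 were above the floor. *Nlrp4a*, *Nlrp4e*, *Nlrp9a*, *Nlrp9b* and *Nlrp9c* had 0 counts in all 3 primordial *in vivo* libraries, where *Nlrp4c* had 3, 5 and 0 counts and *Nlrp4b* 1, 0 and 0. Above the floor were 1 of 21 pairs in primordial *in vivo*, 4 of 21 in primordial *in vitro*, 9 of 21 in primary *in vivo* and 14 of 21 in primary *in vitro*. Without the libraries that stood apart, 1 of 14 pairs remained in primordial *in vitro* and 2 of 14 in primary *in vivo*. The 2 libraries held 191 of the 452 LCM counts of these genes, or 42.3%.

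The order of the 7 genes could not be told in LCM libraries, since the ranges of all neighbours in that order overlapped in each of the 4 groups. *Nlrp4a*, the highest of them on average, had counts of 0, 0 and 0 in primordial *in vivo*, of 0, 48 and 0 in primordial *in vitro*, of 0, 7 and 48 in primary *in vivo* and of 29, 6 and 19 in primary *in vitro* libraries. *Nlrp9c* was the lowest, with 2 counts in primordial *in vitro* 2, 4 in primary *in vivo* 3 and 6, 0 and 10 in primary *in vitro* libraries. Whether the capture kit holds probes for each member is not given in the sources used here.

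In MII oocytes all 9 members were above the floor in all 6 libraries, and the order was another one. *Nlrp4f* was read at 642, 517 and 665 TPM *in vivo* and at 630, 1604 and 1004 TPM *in vitro*, and was the highest member in 6 of 6 libraries. *Nlrp4a* was second in 6 of 6, at 338, 313 and 377 TPM *in vivo* and 199, 531 and 448 TPM *in vitro*. *Nlrp4c* was the lowest in 6 of 6, at 13.7, 15.4 and 5.16 TPM *in vivo* and 11.4, 24.4 and 9.79 TPM *in vitro*. Its nearest relative *Nlrp4e* stood at 82.2, 131 and 117 TPM *in vivo* and at 48.8, 85.9 and 100 TPM *in vitro*, so that these 2 genes did not overlap in either group, although reads they share cannot be assigned with certainty. *Nlrp4b* took a middle place, at 217, 126 and 145 TPM *in vivo* and 56.2, 274 and 196 TPM *in vitro*.

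The 3 *Nlrp9* genes were all well above their LCM levels. *Nlrp9c* was read at 310, 146 and 239 TPM *in vivo* and 97.7, 252 and 217 TPM *in vitro*. *Nlrp9a* was read at 205, 177 and 164 TPM *in vivo* and 96.4, 375 and 236 TPM *in vitro*. *Nlrp9b* was read at 97.1, 111 and 137 TPM *in vivo* and 35.3, 216 and 94.5 TPM *in vitro*. Each of them overlapped between both modes of growth. *Nlrp14*, first in all LCM libraries, was now at rank 8 of 9 by mean TPM *in vivo* and at rank 6 *in vitro*. Its levels were 105, 126 and 86.9 TPM *in vivo* and 58.2, 254 and 205 TPM *in vitro*. From the third to the eighth place of the *in vivo* order (*Nlrp9c*, *Nlrp9a*, *Nlrp4b*, *Nlrp9b*, *Nlrp4e* and *Nlrp14*), the ranges of neighbours overlapped. More genes had counts in MII libraries (14512 to 18239) than in LCM libraries (6048 to 13755). All 9 members had higher TPM in each MII library than in any LCM library. The share of all genes that do so was not determined, so this count does not show a trait particular to the family. Some oocyte markers did so too, such as *Gdf9* (0.382 to 408 TPM in LCM, 4976 to 14549 TPM in MII). Others overlapped, such as *Ddx4* (5.06 to 1011 TPM in LCM, 13.4 to 368 TPM in MII). Stage, fixation, RNA extraction, kit, age or culture time and the share of oocyte RNA in a library cannot be told apart in such differences.

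**Figure D2:**
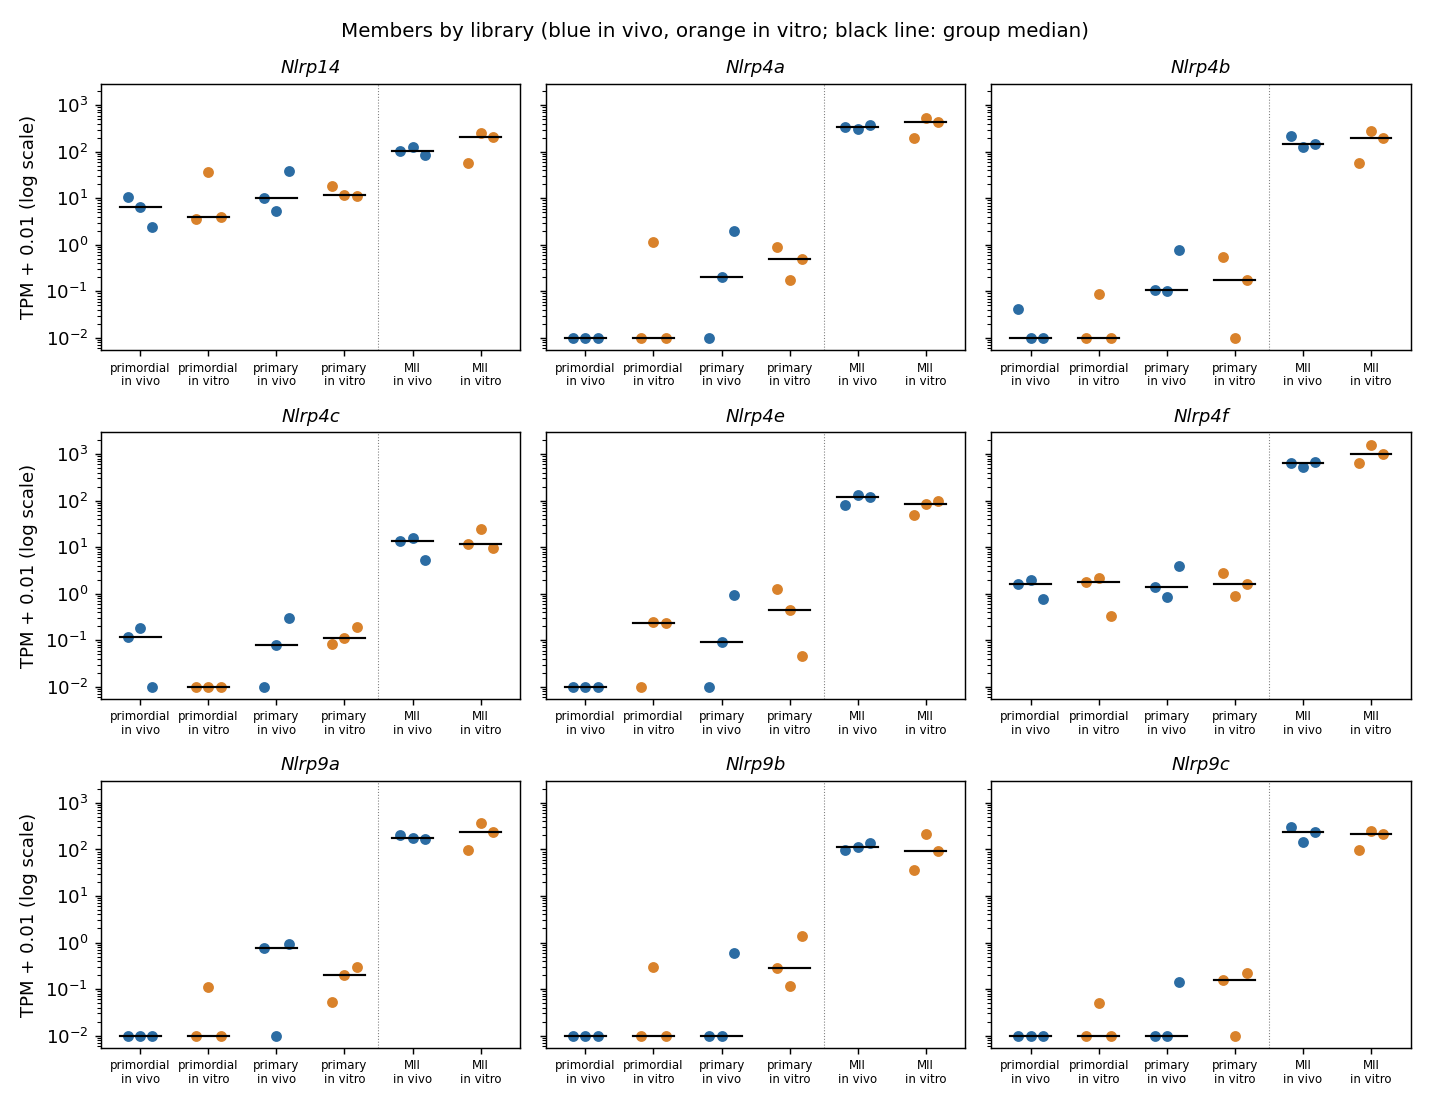
TPM + 0.01 of each member on a log axis in the 6 groups, with a point per library (blue *in vivo*, orange *in vitro*) and a black line at the group median; the dotted line parts LCM from MII libraries, which were made with different kits. *Nlrp14* and *Nlrp4f* have points above 0.3 TPM in all 12 LCM libraries, whereas the other members often sit at 0 there, and all members are above 5 TPM in the 6 MII libraries.

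The make-up of the family thus differed between the LCM and the MII libraries, with *Nlrp14* giving way to *Nlrp4f* and the other members. *Nlrp14* held 66.2% to 90% of the summed TPM of the 9 members in the 12 LCM libraries and 4.49% to 8.18% in MII. *Nlrp4f* held 5.31% to 33.8% in LCM and 31.1% to 51.1% in MII libraries. The other 7 members held 0% to 17.7% in LCM libraries, 62.8%, 61.3% and 61.2% in MII *in vivo* and 44.2%, 48.6% and 51.8% in MII *in vitro* libraries. The summed TPM of the 9 members was 3.19 to 48.4 in LCM libraries, 2009, 1662 and 1935 in MII *in vivo* and 1233, 3617 and 2511 in MII *in vitro* libraries. A share within a library does not depend on its scaling, but probe capture and Smart-seq II may read genes unequally, and their part in the difference was not tested.

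**Figure D3:**
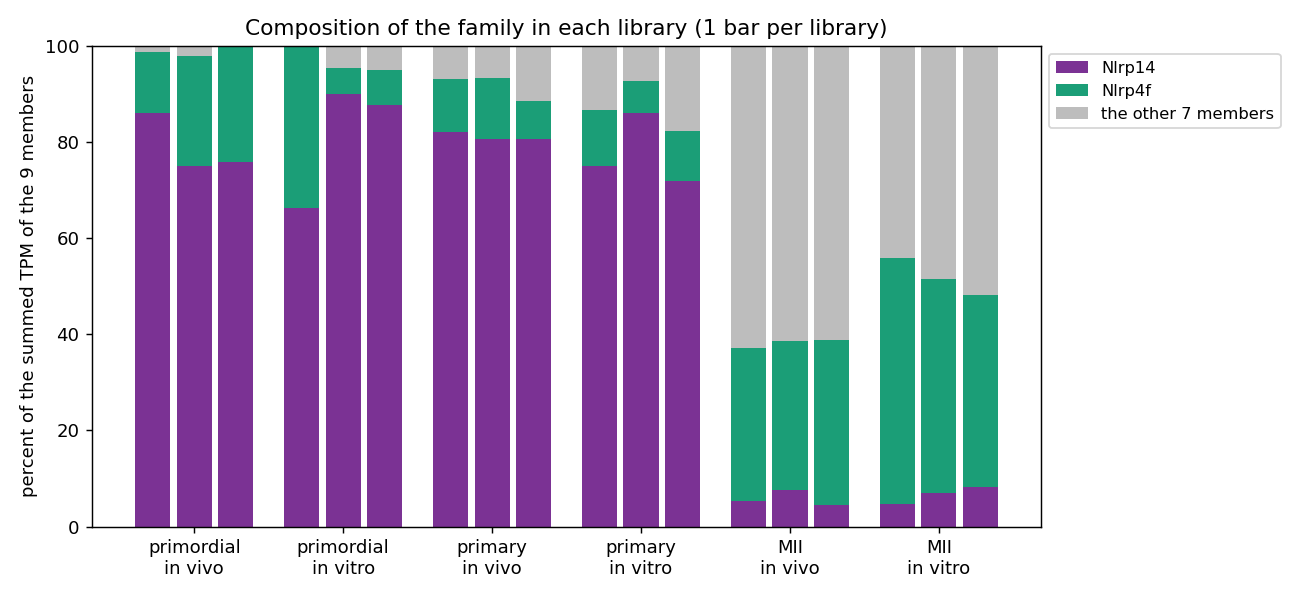
Percent of the summed TPM of the 9 members held by *Nlrp14*, *Nlrp4f* and the other 7 members, with a bar per library that adds up to 100%. *Nlrp14* takes 66.2% to 90% of the bar in LCM and 4.49% to 8.18% in MII libraries.

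To ask whether growth *in vitro* or the step from primordial to primary follicle changed these genes, the quasi-likelihood test of edgeR was run on the LCM libraries, and p-values were adjusted by Benjamini-Hochberg over 15317 genes. Calls required a 2-fold change or more and an adjusted p below 0.05. None of the 9 members was called between *in vitro* and *in vivo* at the primordial stage (0.0326% of all genes tested were called) or at the primary stage (0%). None was called between the primary and the primordial stage *in vivo* (0.0522%) or *in vitro* (0%), nor with the stages compared over both modes of growth (0%), the modes of growth over both stages (0%) or the interaction of stage and growth (0.104%). At an unadjusted p under 0.05 the members counted 1, 0, 2, 0, 1, 0 and 0 in these 7 comparisons in turn. DESeq2 called 0 members as well, with 1, 0, 3, 0, 2, 0 and 0 at an unadjusted p under 0.05, and limma on log2(TPM + 1) called 0, with 0, 0, 1, 0, 1, 0 and 0. The libraries differed much, as the biological coefficient of variation of 2.023 shows.

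*Nlrp14*, the member with the most counts in LCM libraries, had a log2 fold change smaller than its SE in each of the 4 comparisons below. This SE comes from a fit that shares the spread over genes, and it does not measure the spread of *Nlrp14* alone. Its fitted log2 fold change was 1.29 (SE 3.16, 95% interval -4.90 to 7.48, edgeR adjusted p = 0.995) *in vitro* over *in vivo* at the primordial stage, but -0.65 without primordial *in vitro* 2. At the primary stage it was -0.64 (SE 3.12, interval -6.75 to 5.48, edgeR adjusted p = 1), where the median of all genes was 0.44, and it was 0.32 without primary *in vivo* 3. Primary over primordial, it was 1.53 *in vivo* (SE 3.18, interval -4.70 to 7.76, edgeR adjusted p = 0.953), and 0.58 without primary *in vivo* 3. The same step *in vitro* gave -0.40 (SE 3.11, interval -6.50 to 5.70, edgeR adjusted p = 1), or 1.54 without primordial *in vitro* 2. The direction thus hung on 1 library in 3 of the 4 comparisons, and intervals this wide hold large changes either way.

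The members with an unadjusted p under 0.05 were *Nlrp4a* and *Nlrp9a*. *Nlrp4a* had 0 counts in all primordial *in vivo* libraries. With the floor of 3 counts per library in place of 0, its mean CPM was at least 7.77-fold higher in primary *in vivo* libraries (edgeR adjusted p = 0.406). Lower limits of this kind set a mean against the floor and leave out the spread between libraries. Primary *in vivo* 3 held 48 counts of *Nlrp4a* and another library 7, and without library 3 the lower limit was 1.26-fold. *Nlrp9a* was at least 4.19-fold higher in the same comparison (edgeR adjusted p = 0.426), with 18, 0 and 16 counts in primary *in vivo* libraries, and without library 3 the lower limit was 2.82-fold. Averaged over growth, its stage difference had an edgeR adjusted p = 0.365. Between primordial *in vitro* and *in vivo* libraries, *Nlrp4a* was at least 4.37-fold higher *in vitro* (edgeR adjusted p = 0.409), but all 48 of its counts were in library 2, without which it was at 0 in both groups. Without the libraries that stood apart, 0 members were called in any of the 7 comparisons. *Nlrp4e* was at least 2.55-fold and *Nlrp9b* at least 1.59-fold higher in primary than in primordial *in vivo* libraries, but only primary *in vivo* 3 was above the floor for either, and without it *Nlrp4e* was below the floor and *Nlrp9b* at 0. No median over the members is given for LCM comparisons, because many of their fitted changes run against groups at 0.

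In MII oocytes, where the counts were 70 to 21866, growth *in vitro* was compared with growth *in vivo* over 17144 genes in a fit of their own. None of the 9 members was called by edgeR, while 0.35% of all genes tested were, and the only member with an unadjusted p under 0.05 was *Nlrp4f*. DESeq2 called 0 members, with 1 at an unadjusted p under 0.05, and limma on log2(TPM + 1) called 0 with 0. *Nlrp4f* had 608 ± 79.2 TPM *in vivo* and 1079 ± 492 TPM *in vitro* (SD, n = 3), with a log2 fold change of 0.81 (SE 0.35, 95% interval 0.07 to 1.56, edgeR adjusted p = 0.459). It was not higher in all *in vitro* libraries, since MII *in vitro* 1 (630 TPM) lay between the *in vivo* values.

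*Nlrp14* had 106 ± 19.3 TPM *in vivo* and 172 ± 102 TPM *in vitro*, a log2 fold change of 0.65 (SE 0.40, interval -0.21 to 1.51, edgeR adjusted p = 0.555). *Nlrp4e*, whose RNA has been described as needed by the early embryo, had the lowest log2 fold change, -0.46 (interval -1.16 to 0.24, edgeR adjusted p = 0.635), with 110 ± 25.3 and 78.3 ± 26.6 TPM. *Nlrp9c* followed at -0.34 (interval -1.17 to 0.49). *Nlrp4c* had a log2 fold change of 0.40 (interval -0.75 to 1.54) and *Nlrp9a* one of 0.32 (interval -0.50 to 1.13). *Nlrp4a* (0.18, interval -0.55 to 0.90), *Nlrp4b* (0.02, interval -0.91 to 0.96) and *Nlrp9b* (-0.06, interval -0.99 to 0.88) were nearest to 0, although none of these intervals excludes a change of more than 1.5-fold. The log2 fold change was above 0 for 6 of the 9 members, and their median was 0.18 against 0.04 for all genes tested.

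**Figure D4:**
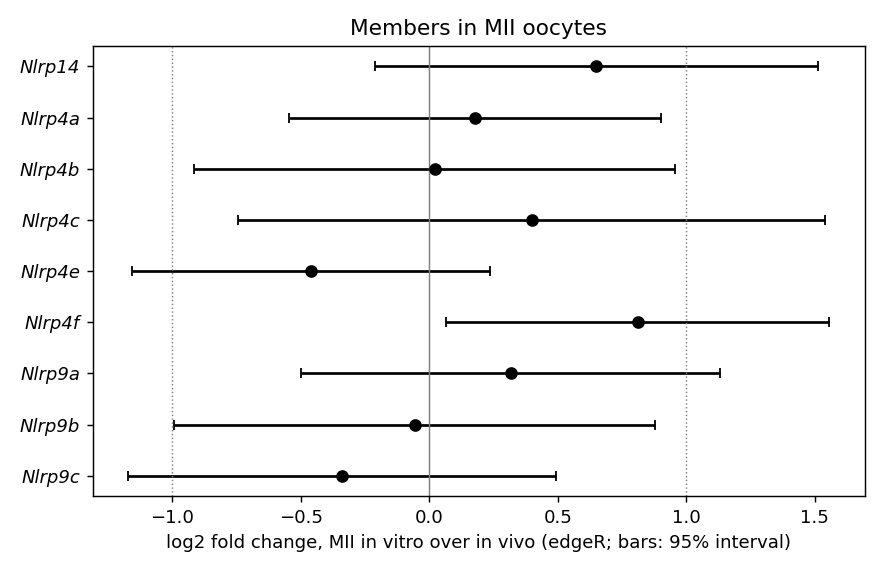
Log2 fold change of each member in MII oocytes, *in vitro* over *in vivo*, from edgeR, with bars for the 95% interval and dotted lines at a fold change of 2. The interval of *Nlrp4f* (0.07 to 1.56) lies above 0 before adjustment, and those of the other 8 members include 0.

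The coefficient of variation of TPM in MII libraries was larger *in vitro* than *in vivo* for 9 of 9 members, at 33.9% to 79.8% against 9.52% to 48%. Over the 11444 genes read in all 6 MII libraries it was larger *in vitro* for 45.6%, with medians of 37.4% *in vitro* and 41.1% *in vivo*, a comparison added after the data were seen. MII *in vitro* 1 held the lowest *in vitro* level of 8 members, the exception being *Nlrp4c*, and MII *in vitro* 2 held the highest of 8 members, the exception being *Nlrp4e*. The members are read in the same 3 libraries, so these counts are not 9 independent observations. MII *in vitro* 1 also had the lowest oocyte marker sum of the 6 (16933 TPM, against 24547 and 28065 TPM in the other *in vitro* libraries), and its part in the spread was not tested.

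Within the family, the share of each member in the summed MII level can be compared without the overall level of a library. This comparison was chosen after the data were seen. The share of *Nlrp4f* was 31.9%, 31.1% and 34.3% *in vivo* and 51.1%, 44.4% and 40% *in vitro*, without overlap. The means were 32.5% ± 1.67 and 45.2% ± 5.6 (SD, n = 3), a difference of 12.7 percentage points (exact two-sided permutation test, p = 0.1, adjusted over 9 members 0.3). With 3 libraries against 3, this is the smallest p that the exact permutation test allows. Groups without overlap always give it, so the p adds nothing to the lack of overlap. The share of *Nlrp9c* was lower *in vitro*, 7.85% ± 0.844 against 12.2% ± 3.35, also without overlap (exact permutation p = 0.1, adjusted 0.3). That of *Nlrp4e* was 3.44% ± 0.924 against 6.01% ± 1.91 (exact permutation p = 0.1, adjusted 0.3), but its groups overlapped when CPM was used in place of TPM. Shares of the other 6 members overlapped between the groups. As shares of 1 total add up to 100%, a higher share of *Nlrp4f* lowers the others.

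**Figure D5:**
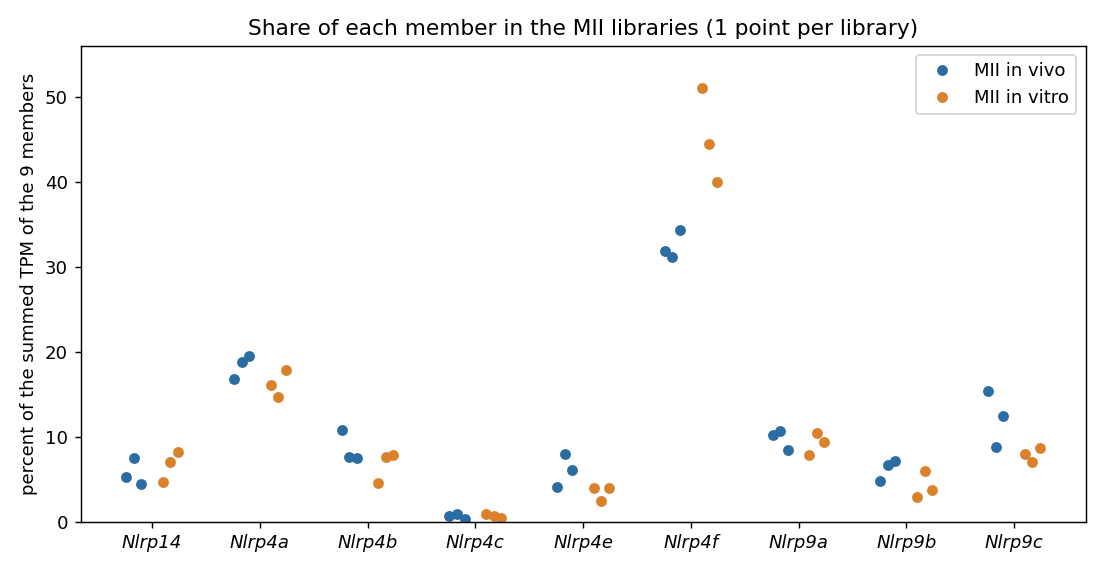
Percent of the summed TPM of the 9 members held by each member in the 6 MII libraries, with a point per library (blue *in vivo*, orange *in vitro*). The 3 *in vitro* points of *Nlrp4f* (40% to 51.1%) lie above its *in vivo* points (31.1% to 34.3%), and those of *Nlrp9c* and *Nlrp4e* lie below theirs.

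The subcortical maternal complex is a protein assembly under the oocyte membrane that the early embryo needs, and *Nlrp5* (Mater), another NLRP gene, is its best known member. Of 7 genes of the complex (*Nlrp5*, *Nlrp2*, *Ooep*, *Tle6*, *Khdc3*, *Padi6* and *Zbed3*), edgeR called 0 in each of the 7 LCM comparisons, with 0 or 1 at an unadjusted p under 0.05, and 0 in MII with 0 at an unadjusted p under 0.05. Their median log2 fold change in MII was 0.02 against 0.04 for all genes. *Nlrp5* behaved like *Nlrp14* in that it was read in all libraries, at 2.06 to 41.5 TPM in LCM and 62.4 to 371 TPM in MII libraries. The TPM ratio of *Nlrp14* to *Nlrp5* was 0.474 to 1.72 in LCM (median 0.881) and 0.583 to 0.933 in MII libraries (median 0.744). *Nlrp2*, like most *Nlrp4* and *Nlrp9* members, was low in LCM libraries, with 0 counts in 7 of 12 and at most 1.1 TPM, and 11.7 to 136 TPM in MII. *Padi6*, a peptidylarginine deiminase of the oocyte lattices, had 3.6 to 104 TPM in LCM and 152 to 850 TPM in MII libraries. *Zbed3* had 0.095 to 51.3 and 12511 to 34839 TPM.

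NLRP14 has been described as a partner of UHRF1, which guides the maintenance DNA methyltransferase DNMT1, and of the mitochondrial calcium exchanger encoded by *Slc8b1*. *Uhrf1* was read at 0.287 to 16.5 TPM in LCM libraries, at 464 to 533 TPM in MII *in vivo* and at 114 to 356 TPM in MII *in vitro*, without overlap. Its MII log2 fold change was -1.17 (SE 0.35, edgeR adjusted p = 0.266, unadjusted under 0.05) and was not called. The share of all genes whose MII groups do not overlap was not determined. *Dnmt1* had 0.144 to 163 TPM in LCM and 38.5 to 193 TPM in MII libraries, with an MII log2 fold change of 0.52 (edgeR adjusted p = 0.724). *Slc8b1* was listed at 0 in all 6 MII and in 9 of 12 LCM libraries. In the LCM comparisons edgeR called 0 of these 3 genes, with 0 or 1 at an unadjusted p under 0.05.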

How the data were processed

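RNA was sequenced in 18 mouse libraries. The authors trimmed reads with Trim Galore 0.4.1, mapped to mm10 (TopHat2) and counted on Ensembl genes (featureCounts), and deposited raw read counts of 53715 genes. They also deposited TPM values, scaled to gene length and library size, of 28252 of these genes. Use of strand and of reads with several matches is not given in the sources used here. Reads were not processed again. Groups and replicate numbers came from the sample titles.

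Counts were tested with edgeR 4.0.16 (TMM, robust quasi-likelihood fit, R 4.3.3) on genes whose counts summed to 10 or more, in 1 fit of 12 LCM and 1 fit of 6 MII libraries. The method was tested on simulated data. Only genes with higher mean counts than most members had in LCM libraries were changed there, so this does not cover the LCM results of those members. A call needed a 2-fold change or more and a Benjamini-Hochberg adjusted p below 0.05. Alternatives were DESeq2 1.42.0, limma 3.58.1 on log2(TPM + 1) and log2(TPM + 0.1), other scaling and filters, a replicate block, other sets of libraries and leaving out each library. Gene models came from GENCODE on GRCm38 and promoter sequences from RefSeq on GRCm38.p6. Coding sequences were aligned with Biopython 1.88.

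Named were all 9 members and, from lists of maternal complex, partner, other NLR, inflammasome and cell marker genes, the called genes and the 3 with the highest counts, and the 5 genes most like the members over the LCM libraries. Other list genes, such as *Nlrp2*, *Cyp19a1* or *Casp1*, were named after their values were seen. The members and lists were chosen with earlier results of these data known.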

Additional observations from a re-analysis of the deposited data

How the results depend on the processing

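No alternative called any of the 9 members in any of the 8 comparisons (189 of 189 alternatives gave 0), but some did not test all 9. In the LCM comparisons the expression filter of edgeR left 4 members to test and the TPM filter of limma 2. The fit of only the 2 primordial groups tested 4. A member not tested counts here as not called. The number of genes called over the whole table moved widely. With DESeq2 the calls over all genes were 769 against 5 with edgeR (primordial, growth), 226 against 0 (primary, growth), 539 against 8 (stage *in vivo*), 422 against 0 (stage *in vitro*), 634 and 562 against 0 and 0 (averaged stage and growth), 546 against 16 (interaction) and 370 against 60 (MII). In MII, limma on log2(TPM + 1) called 19 genes, no filter beyond 1 count 263, 1 fit of all 18 libraries 0, and leaving out 1 library 11 to 378. The cause was not tested.

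Of 240 alternatives of the log2 fold changes given, 211 kept their direction, 29 did not and 0 passed the threshold of a call. *Nlrp14* turned at the primordial stage without the libraries that stood apart (-0.65), a set chosen after the data were seen, and over single libraries left out it ranged from -0.65 to 1.84. At the primary stage it turned with limma (0.0152 with a pseudocount of 1, with or without a filter on TPM, 0.044 with 0.1) and without those libraries (0.32), with a range of -1.07 to 0.32 over single libraries. For the stage *in vitro* it turned with limma (0.60, 0.71 and 0.60) and without those libraries (1.54), with a range of -0.86 to 1.54. In MII, *Nlrp4b* turned with DESeq2's size factors (-0.0077), TMMwsp scaling (-0.0051) and DESeq2 (-0.0077), with limma (-0.13 under its 3 settings) and with a replicate block (-0.0309), with a range of -0.34 to 0.41 over single libraries. *Nlrp9b* turned in the fit of all 18 libraries (0.0348). Over single libraries it ranged from -0.73 to 0.31, *Nlrp9a* from -0.0507 to 0.61 and *Nlrp9c* from -0.61 to 0.0547. The turns of *Nlrp9a* and *Nlrp9c* came without MII *in vitro* 2 and MII *in vivo* 1.

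Libraries of different groups with the same number did not deviate together (correlations of -0.05 to 0.087). With so wide a spread between libraries, this cannot show whether such libraries share animals or handling. The replicate block moved the calls over all genes to 1 (primordial growth), 0 (other LCM comparisons) and 85 (MII), and called 0 members. Without the libraries that stood apart, the lower limits of the folds of *Nlrp4a* and *Nlrp9a* (stage *in vivo*) fell to 1.26 and 2.82, and those of *Nlrp4a* (primordial growth), *Nlrp4e* and *Nlrp9b* could not be given. The share of *Nlrp14* in primary *in vivo* libraries was 79.4% on CPM against 81.1% on TPM, and the *Nlrp4f* difference in MII was 12.6 against 12.7 percentage points, with adjusted exact permutation p = 0.45 against 0.3.

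With 3 libraries a group and a biological coefficient of variation of 2.023 in LCM libraries (0.726 in MII), the intervals of the members are wide. The libraries carry no molecular identifiers, so counts of amplified reads are not counts of molecules, and 5 of the 9 members had no count in primordial *in vivo* libraries.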

Other observations

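Other NLR genes, some of which sense microbes in immune cells, were almost silent in LCM libraries. Of 17 listed genes 15 were in the TPM table, with a summed level of 0 to 16.4 TPM in LCM and 34 to 89.4 TPM in MII libraries, and the 16.4 TPM came from *Nod1* in 1 library. *Nlrc4*, the adaptor of the NAIP inflammasomes, was listed at 0 in 12 of 12 LCM libraries and at 24.1 to 62.1 TPM in the 6 MII libraries. Stage, fixation, RNA extraction, kit and age or culture time cannot be told apart in that difference. *Nod2* had 3.79 to 20.7 TPM in MII libraries and 0 in 10 of 12 LCM libraries. *Nlrp3* was at 0 in all LCM libraries and at most 0.0694 TPM in MII. EdgeR called 0 of the 6 genes tested in MII, with 0 at an unadjusted p under 0.05, and 0 of the 5 tested in each LCM comparison, with 0 or 1.

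Core inflammasome genes were hardly read beside these levels of *Nlrp4*, *Nlrp9* and *Nlrp14*. *Pycard*, which encodes the adaptor ASC, and the effectors *Casp1*, *Casp4* and *Gsdmd* were listed at 0 in 6 of 6 MII libraries, and *Casp1* and *Casp4* also in 12 of 12 LCM libraries. *Il18* was at most 2.08 TPM in any library. *Nek7*, a mitotic kinase that also binds NLRP3, was the exception, at 7.21 to 14.4 TPM in MII and up to 56.4 TPM in LCM libraries. EdgeR called 0 of the 2 tested in MII and 0 of the 1 tested in LCM comparisons, with 0 at an unadjusted p under 0.05.

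Of the oocyte markers, *Ddx4* was called in MII (log2 fold change 3.55, edgeR adjusted p = 0.00206), 1 of 14 tested, with 2 at an unadjusted p under 0.05. In the LCM comparisons edgeR called 0 of them, with 0 or 1 at an unadjusted p under 0.05. Of granulosa and of stroma and theca markers edgeR called 0 in all 8 comparisons, with 0 to 2 at an unadjusted p under 0.05. It called 0 endothelial (*Pecam1*, *Cdh5* and *Tek* had the most counts) and 0 leukocyte markers (*Cd68*, *Csf1r* and *Lyz2*), with 0 or 1. Erythroid markers (*Hba-a1*, *Hbb-bs* and *Hbb-bt*) reached 1157 to 7503 TPM in primary *in vivo* libraries and 0 to 183 TPM in the other LCM groups, where edgeR called 0 in each comparison, with 1 to 3 at an unadjusted p under 0.05.

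Over the 12 LCM libraries, 7985 genes were compared with the mean log2(CPM + 1) of the members. The most alike outside the family were *Lsm1* (Pearson r = 0.93), *Gm47278* (0.92), *Ibtk* (0.92), *Vrtn* (0.91) and *Apba2* (0.91). *Nlrp14*, which is part of that mean, had r = 0.92. All 5 were highest in primary *in vivo* 3, and without it r was 0.85, 0.87, 0.87, 0.86 and 0.81. The 5 genes were at 0 in 3, 6, 0, 5 and 7 libraries, and the points share depth and oocyte content, so these values only describe the libraries.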
